A study of Glycine max with 10 samples.

Results

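SHAT1-5 (Glyma.16G019400.Wm82.a2.v1, chromosome 16) and NST1A (Glyma.07G050600.Wm82.a2.v1, chromosome 7) are duplicated soybean genes that encode NAC transcription factors of the secondary wall. They were chosen by gene ID, 2 of 56044 genes in the count table, and both were among the 30226 genes that passed the filter on low counts. Pods of field-grown soybeans (Glycine max), collected 18 days after flowering, gave 10 RNA-seq libraries. By their labels, soybeans 015, 018, 044, 060 and 071 had a high pod shattering force (5 libraries, called high_force), and soybeans 038, 055, 072, 092 and 109 a low one (5 libraries, called low_force). No treatment, genotype or line is named, and a soybean number may stand for a plant, a line or a pool, so the spread and the p-values describe these 10 libraries. Whole pods hold walls, sutures and young seeds, and in such bulk RNA fewer cells of a type and less RNA per cell cannot be told apart.

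NAC factors of the NST type switch on secondary wall formation. In Arabidopsis they act above MYB factors, which in turn activate genes for cellulose, xylan and lignin of the thickened wall. In the soybean pod such walls form in the sclerenchyma of the pod wall and in the fibre caps along the ventral suture, the line where the pod opens. SHAT1-5 is known for promoting the thickening of the fibre cap cells, and a stronger expression of it has been linked to pods that stay closed in cultivated soybean. NST1A, its duplicate, has been linked to pod dehiscence by association mapping. Read counts do not show changes in the encoded proteins.

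Library totals ran from 3779756 to 13298201 counts. Levels are in CPM, counts relative to the size of their library, with library sizes scaled by edgeR's TMM method (a trimmed mean of log ratios), and are not divided by gene length. Low_force 055 stood apart in effective depth after scaling, with 0.922 M counts against 4.35 to 20.1 M counts in the other 9 libraries. Its total of 6528403 counts lay within the range of the others. Its TMM scaling factor was 0.141, against 0.874 to 1.525 in the others, and 30465 genes had a count in it, against 37611 to 41462. Its values for both genes are therefore the least precise, and a count of 0 there would allow up to 3.26 CPM (3 counts, for counting error only). The seed storage gene Gy1 reached 5571 CPM in low_force 109 and at most 65.3 CPM elsewhere.

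SHAT1-5 was present in every library at a moderate level. In high_force it stood at 21.6 CPM in soybean 015, 27.7 in 018, 23.9 in 044, 23.1 in 060 and 18.1 in 071. In low_force it stood at 17.5 CPM in soybean 038, 17.4 in 055, 24.1 in 072, 30.8 in 092 and 24.6 in 109. The groups overlapped: low_force held the lowest and the highest library, and all high_force libraries lay between them. These levels rest on 105 to 481 counts per library, except for 16 counts in low_force 055.

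NST1A was also present in every library. In high_force it stood at 44.9 CPM in soybean 015, 34.5 in 018, 44.6 in 044, 44.9 in 060 and 30.6 in 071. In low_force it stood at 25.4 CPM in soybean 038, 31.5 in 055, 41.1 in 072, 29.3 in 092 and 41.6 in 109. The 3 highest libraries were of high_force and the 2 lowest of low_force, with the other 5 mixed. The counts ran from 179 to 897 per library, apart from 29 in low_force 055, where counting error alone is 18.6% of the value, and larger still for SHAT1-5.

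**Figure D1:**
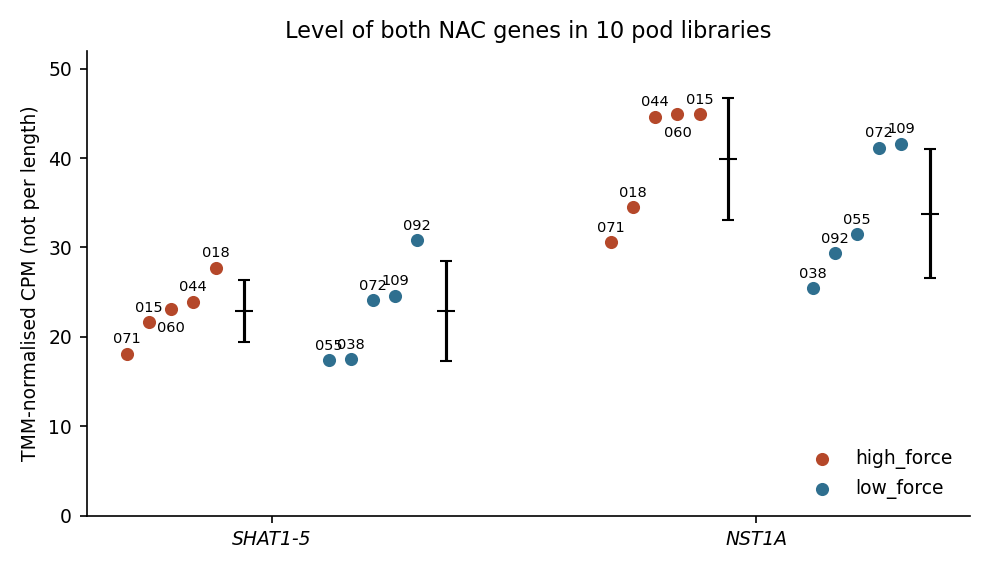
TMM-normalised CPM (vertical axis, not divided by length) of SHAT1-5 and NST1A in 5 high_force and 5 low_force pod libraries. Each point is a library with its soybean number, and the bar beside each group is its mean ± SD (n = 5). The groups overlap for both genes.

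Neither gene differed between the groups beyond the spread between libraries. The mean ± SD of SHAT1-5 over the 5 libraries of each group was 22.9 ± 3.49 CPM (high_force) against 22.9 ± 5.63 CPM (low_force). The log2 fold change, high_force minus low_force, was -0.01 (SE 0.23) in edgeR's quasi-likelihood test (adjusted p = 0.996 over all genes tested). Its 95% confidence interval ran from -0.51 to 0.48, that is from 0.704-fold to 1.39-fold, so larger differences in either direction lie outside the interval. Its sign turned when libraries were scaled by total alone (0.49, while the median over all genes moved to 0.54).

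For NST1A the mean ± SD was 39.9 ± 6.85 CPM (high_force, n = 5) against 33.8 ± 7.25 CPM (low_force, n = 5). The log2 fold change was 0.24 (SE 0.22, 95% confidence interval -0.24 to 0.72, or 0.844-fold to 1.65-fold; edgeR's quasi-likelihood test, adjusted p = 0.877). A difference up to that upper bound cannot be told from none with 5 libraries a group. The share of all genes called in this comparison was 0% (0 of 30226, edgeR's quasi-likelihood test at adjusted p under 0.05), against 0 of these 2 genes. In the same edgeR test, 6.26% of genes (1893) had an unadjusted p under 0.05, and neither copy was among them. DESeq2 called 25 genes and the edgeR exact test 3, in both cases without either copy. For 0.986% of genes the groups did not overlap, and neither copy was one of them.

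The order of the libraries was not the same for the 2 copies. From low to high, SHAT1-5 ran 055, 038, 071, 015, 060, 044, 072, 109, 018 and 092. NST1A ran 038, 092, 071, 055, 018, 072, 109, 044, 060 and 015. None of the 9 steps between neighbours in either order exceeded 2 combined counting errors, so single steps are not resolved. The lowest and the highest library lay 2.88 counting errors apart for SHAT1-5, with low_force 055 as the imprecise end, and 6.05 apart for NST1A.

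Within a library the ratio of the copies needs no scaling between libraries. NST1A had more counts than SHAT1-5 in 9 of 10 libraries, by 1.24- to 2.08-fold, and slightly fewer in low_force 092 (294 against 309). Since counts grow with transcript length, and no length in the build of the files was used here, this is a ratio of reads and not of transcripts. Reads that match both copies may also have been dropped or assigned to 1 of them, because no source used here gives the handling of such reads.

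The share of SHAT1-5 in the summed counts of both genes was 32.5% in high_force 015, 44.6% in 018, 34.9% in 044, 34.0% in 060 and 37.2% in 071. It was 40.8% in low_force 038, 35.6% in 055, 36.97% in 072, 51.2% in 092 and 37.1% in 109. Low_force 092 was the only library with a share above 50%, and its 95% interval (47.2% to 55.3%, Clopper-Pearson, counting error only) lay above the intervals of 7 of the other 9 libraries. It overlapped those of high_force 018 (39.2% to 50.1%) and low_force 055 (21.9% to 51.2%, on 45 counts). The summed share over the other 9 libraries was 36.6%.

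**Figure D2:**
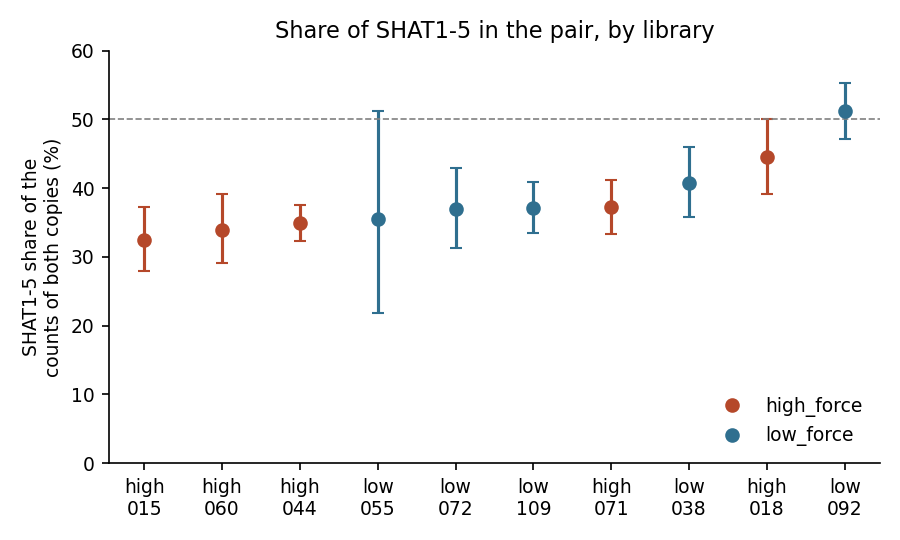
Share of SHAT1-5 in the summed counts of SHAT1-5 and NST1A (vertical axis, percent) for 10 libraries ordered by that share. Bars are 95% Clopper-Pearson intervals, which cover counting error only, and the dashed line marks 50%. Low_force 092 is at 51.2% and the other libraries lie between 32.5% and 44.6%.

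The log2 ratio of SHAT1-5 to NST1A counts had a mean ± SD of -0.80 ± 0.29 (high_force, n = 5) against -0.57 ± 0.38 (low_force, n = 5). The difference of -0.23 was within the range of relabelled libraries (exact permutation test, two-sided, p = 0.349, the smallest this design allows being 0.00794), and 3 high_force libraries were below every low_force library. Without low_force 092 the difference was -0.07 (exact permutation p = 0.706), and without high_force 018 it was -0.35 (exact permutation p = 0.0952). Over all 10 libraries the SD of the log2 ratio was 0.34, where counting error alone gives 0.195. Without low_force 092 alone it was 0.22 against 0.202 from counting, so much of the excess rested on that library. Without low_force 055, whose few counts carry much of the counting error, it was 0.35 against 0.141 from counting, and without low_force 055 and 092 it was 0.24 against 0.144. The interval of high_force 018 lay above those of high_force 015 (27.95% to 37.3%), 044 (32.4% to 37.5%) and 060 (29.1% to 39.1%), so the ratio also varied beyond counting error within high_force.

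LHY1a (Glyma.16G017400) and LHY1b (Glyma.07G048500), duplicated clock genes that are named here from published work as recalled, lie close to this pair. LHY1a stands 20 IDs before SHAT1-5 and LHY1b 21 IDs before NST1A in the order of the count table's IDs. In the RefSeq gene table (assembly Glycine_max_v4.0), where 1 gene carries the symbol SHAT1-5, 17 protein-coding genes lie between it and the gene with the synonym GmLHY1a. The ratio of LHY1a to LHY1b counts ran from 1.51 in low_force 092 to 6.20 in low_force 072 (SD of the log2 ratio 0.76), against 0.482 to 1.05 for SHAT1-5 to NST1A (SD 0.34). LHY1a itself ran from 11.8 to 1041 CPM and was high in high_force 015 and low_force 055 and 072. In these 3 libraries its ratio to LHY1b was 4.70 to 6.20, against 1.51 to 2.34 in the other 7. The SD of 0.76 thus holds the distance between libraries with high and low LHY1a. In these 3 libraries SHAT1-5 lay between 17.4 and 24.1 CPM and NST1A between 31.5 and 44.9 CPM. In the other 7 libraries they lay between 17.5 and 30.8 CPM and between 25.4 and 44.9 CPM, so the ranges overlapped for both genes. Without those 3 libraries the group log2 fold changes were -0.07 for SHAT1-5 and 0.27 for NST1A.

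The genes next to the pair were mostly scarce. Of the 10 nearest IDs around SHAT1-5, 5 on each side, 2 passed the filter, at mean levels of 1.73 and 2.71 CPM. Of the 10 around NST1A, 4 passed, at mean levels of 3.93 to 35.0 CPM.

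Both copies were among the steadier genes. The coefficient of variation (CV, the SD over the mean of CPM in 10 libraries) was 19.3% for SHAT1-5 and 20.05% for NST1A, and counting error alone would give 10.03% and 7.91%. The highest library was 1.78-fold above the lowest for SHAT1-5 and 1.77-fold for NST1A. Of the 11318 genes with a mean level between 0.5 and 2 times that of SHAT1-5, 10.2% had a lower CV, and their median was 32.9%. For NST1A it was 14.6% of 8231 genes, with a median of 31.7%. The fitted biological coefficient of variation, the square root of edgeR's dispersion, was 29.0% and 29.3%, where the median of the same genes was 35.5% for both.

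Genes in common use as references for quantitative PCR gave a scale for this. TIP41 (Glyma.20G130700) had a CV of 15.5% and UKN1 (Glyma.12G020500) of 21.4%, on both sides of the pair. ACT11 (Glyma.18G290800), an actin gene, had 34.1% and ELF1B (Glyma.02G276600), an elongation factor gene, 35.2%. Pdh1 (Glyma.16G141400), the dirigent-like gene of pod dehiscence, had 146.9% (123.1% within groups) and ran from 0 to 22.6 CPM over the same pods. The 0 was in low_force 055, where it would allow up to 3.26 CPM. Its mean ± SD was 0.857 ± 0.781 CPM (high_force, n = 5) against 10.8 ± 10.15 CPM (low_force, n = 5). The log2 fold change was -3.82 (edgeR's quasi-likelihood test, adjusted p = 0.796), so its CV also holds the distance between the groups. Pdh1 had 20.8 and 22.6 CPM in low_force 092 and 109, whose SHAT1-5 levels of 30.8 and 24.6 CPM were the first and the third highest. It had 2.25 CPM in high_force 018, whose SHAT1-5 level was the second highest, and 5.11 CPM in low_force 038, whose SHAT1-5 level was the second lowest. A relation of Pdh1 with SHAT1-5 was not tested.

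**Figure D3:**
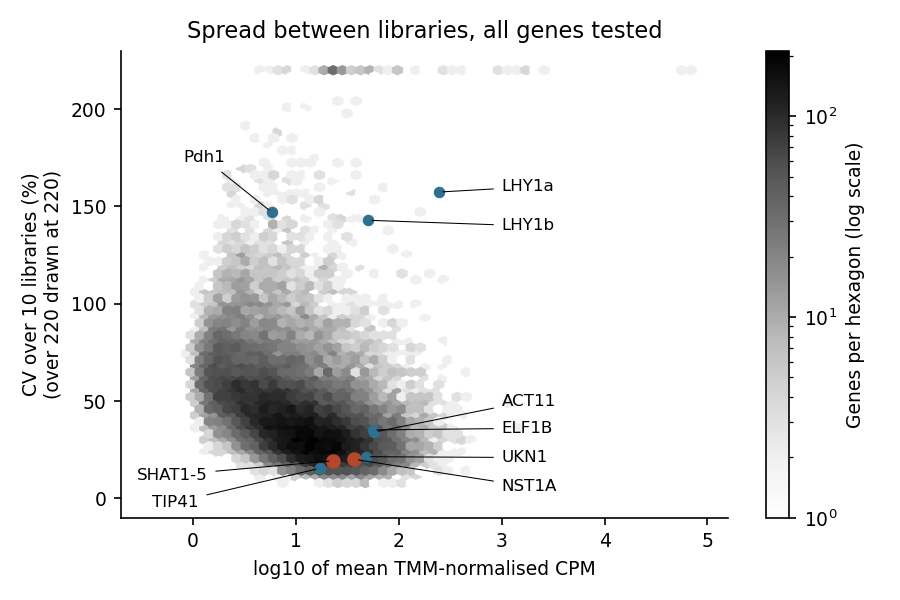
CV over 10 libraries (vertical axis, percent, values above 220 drawn at 220) against the log10 of the mean TMM-normalised CPM (horizontal axis) for all 30226 genes tested. Shading counts genes per hexagon on a log scale, red points are SHAT1-5 (19.3%) and NST1A (20.05%), and blue points are the other named genes. The pair lies near the lower edge of the cloud, with TIP41 and UKN1.

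The summed level of both copies ran from 42.95 CPM (low_force 038) to 68.6 CPM (high_force 044). Its mean ± SD was 62.8 ± 8.24 CPM (high_force, n = 5) against 56.7 ± 10.3 CPM (low_force, n = 5). Its CV was 15.7%, against 14.4% if the copies varied independently of each other. High_force 071 and low_force 038 and 055 formed the low end, at 42.95 to 48.8 CPM, and the other 7 libraries lay between 60.2 and 68.6 CPM.

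The correlation of the 2 copies over all 10 libraries was weak and did not pass. Pearson's r of log2 CPM was 0.32 (permutation p = 0.366, adjusted 0.550 over 3 relations) and Spearman's rho was 0.10 (permutation p = 0.786, adjusted 0.786), over 10 libraries that share a scaling. Without low_force 038 and 055, farthest from the median of SHAT1-5, r was -0.21, so even its sign rested on those libraries. Low_force 092 pulled the other way: it was the highest library for SHAT1-5 and the second lowest for NST1A, and without it r was 0.67 (permutation p = 0.0513, not adjusted). Leaving out any other single soybean gave r of 0.060 to 0.38. The 0.67 is thus the highest of these values, and its p-value is no test of a relation between the copies. The other 2 relations were those of each copy with effective depth, with r = 0.33 for SHAT1-5 (permutation p = 0.367, adjusted 0.550) and 0.11 for NST1A (permutation p = 0.783, adjusted 0.783). Spearman's rho was 0.22 (permutation p = 0.535) and -0.14 (permutation p = 0.707), adjusted 0.786 for both. CPM is itself a count divided by effective depth, so both sides of these 2 relations share a term. Their p-values therefore do not show that the levels are free of depth. Without high_force 044 and low_force 055, the libraries of the highest and the lowest effective depth, r was -0.24 and -0.58. Groups of 5 are too small for an r within each.

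**Figure D4:**
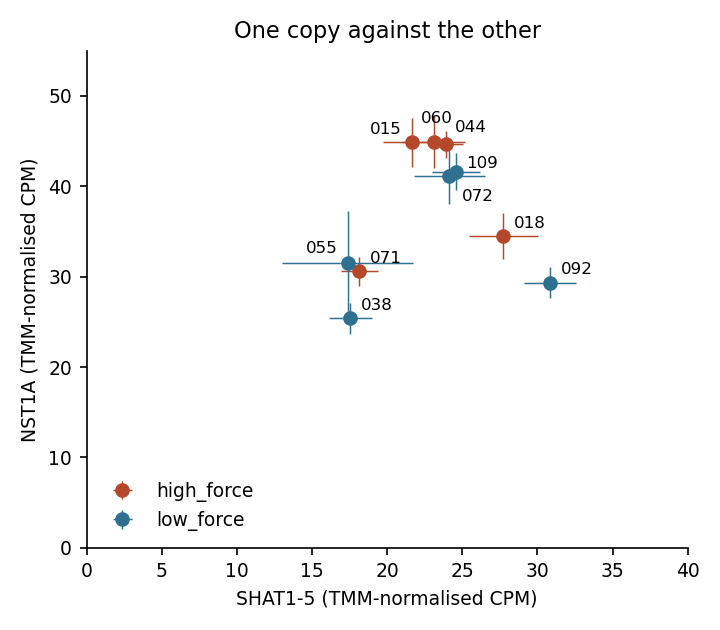
TMM-normalised CPM of NST1A (vertical axis) against SHAT1-5 (horizontal axis) in 10 libraries, with 1 counting error on each axis and soybean numbers beside the points. Low_force 092 stands alone at the right, with 30.8 CPM of SHAT1-5 and 29.3 CPM of NST1A.

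As a description with no test, each copy was set against the 15878 other genes with a mean of at least 10 CPM. Over 10 libraries, 16 genes had r of at least 0.9 with SHAT1-5 (0.101%) and 20 had r of at most -0.9 (0.126%). For NST1A the numbers were 3 (0.0189%) and 1 (0.0063%). The lists shared 0 genes in either direction. With r of only 0.32 between the copies, no gene can reach 0.9, or -0.9, with both. This 0 therefore follows from that r and is no separate result. The median gene of the same set had 25 partners at r of at least 0.9 (quartiles 6 and 87) and 17 at most -0.9. SHAT1-5 was near the middle, with more partners than 41.1% of genes at 0.9 and than 52.6% at -0.9. NST1A was low, with more than 14.8% and 6.25% of genes. NST1A itself ranked 4943 in likeness to SHAT1-5, above 68.9% of genes, and SHAT1-5 ranked 2853 for NST1A, above 82.0%. Without low_force 092 these ranks were 807 (above 94.9%) and 417 (above 97.4%).

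Over all 10 libraries, r with SHAT1-5 spread more widely over genes than r with NST1A. From the 5th to the 95th percentile, r with SHAT1-5 ran from -0.74 to 0.71, and r with NST1A from -0.46 to 0.54. The median absolute r to all genes was 0.417 for SHAT1-5, above that of 73.9% of genes, and 0.215 for NST1A, above that of 3.26%. Without low_force 055 it was 0.41 for SHAT1-5 (above 56.5% of genes) and 0.273 for NST1A (above 11.9%). Without low_force 092 it was 0.344 for SHAT1-5, below the median gene (0.358, above 42.9% of genes), and 0.272 for NST1A (above 15.5%). Without low_force 092, SHAT1-5 was thus no more broadly correlated than the median gene.

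**Figure D5:**
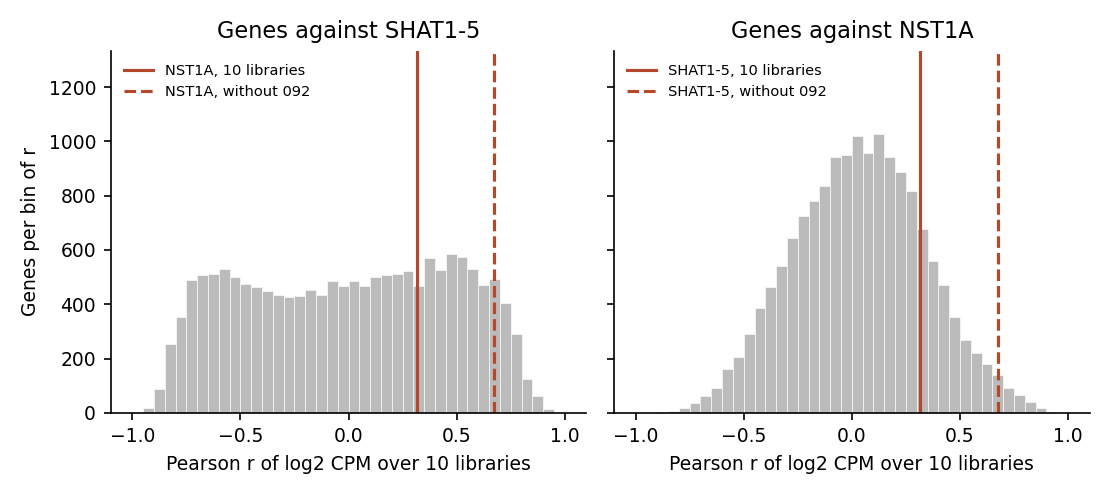
Number of genes (vertical axis) per bin of Pearson's r of log2 CPM over 10 libraries (horizontal axis) with SHAT1-5 (left) and NST1A (right), for 15878 genes. Red lines mark the other copy, at r = 0.32 over 10 libraries and at 0.67 without low_force 092. The bins use all 10 libraries, so the place of the 0.67 line among them is not its rank. The left distribution is broad (5th percentile -0.74, 95th 0.71), with 427 to 584 genes in each bin from -0.7 to 0.7. The right one has a single peak near its median of 0.040.

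The genes most like each copy carry no description in the tables used here, so they are given by ID. They were picked for their r over these same libraries, so the matches between libraries given below follow from that choice. Glyma.04G055900 had r = 0.95 with SHAT1-5, at 12.2, 14.2, 13.2, 13.9 and 6.16 CPM in high_force 015, 018, 044, 060 and 071. In low_force 038, 055, 072, 092 and 109 it stood at 6.97, 7.60, 14.3, 26.9 and 14.3 CPM. It was low in the same 3 libraries as SHAT1-5 (071, 038 and 055) and highest in 092, over a wider range than SHAT1-5 itself. Glyma.03G240300 had r = 0.95 as well, from 4.34 CPM in low_force 055 (4 counts) to 23.3 CPM in low_force 092.

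Glyma.09G052200 ran opposite to SHAT1-5, with r = -0.97 (Spearman's rho -0.98). It stood at 28.4, 19.5, 22.5, 22.2 and 38.3 CPM in high_force 015, 018, 044, 060 and 071, and at 42.1, 42.3, 19.8, 9.68 and 19.9 CPM in low_force 038, 055, 072, 092 and 109. Its 3 highest libraries were the 3 lowest of SHAT1-5, and its lowest was 092. Glyma.04G062100 had r = -0.95, from 5.69 CPM in low_force 092 to 17.99 CPM in low_force 038. Without low_force 092 the absolute r of these 4 genes was at least 0.923. Spearman's rho over 10 libraries was 0.90 for Glyma.04G055900, 0.81 for Glyma.03G240300 and -0.98 for Glyma.04G062100.

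For NST1A the closest gene was Glyma.12G084600, with r = 0.93 and levels from 91.1 CPM in low_force 055 to 327.2 CPM in high_force 015. It stood at 327.2, 185.3, 307.9, 265.3 and 164.2 CPM in high_force 015, 018, 044, 060 and 071, and at 91.9, 91.1, 276.2, 113.2 and 215.6 CPM in low_force 038, 055, 072, 092 and 109. Glyma.12G002500 had r = 0.90, from 26.8 CPM in low_force 038 to 51.8 CPM in high_force 015. Both were highest in high_force 015, where NST1A was as high as in high_force 060. Without low_force 092 their r was 0.92 and 0.89, and Spearman's rho over 10 libraries was 0.87 and 0.93.

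Glyma.17G023400 ran opposite to NST1A (r = -0.93), from 16.8 CPM in high_force 015 to 32.4 CPM in low_force 038. Glyma.16G179500 came next (r = -0.86), from 11.4 CPM in low_force 109 to 21.8 CPM in low_force 038. Spearman's rho was -0.88 for the first and -0.76 for the second. With SHAT1-5, these 4 genes of NST1A had r of 0.34, 0.033, -0.40 and -0.32. None of the 8 genes passed between high_force and low_force in edgeR's quasi-likelihood test over all genes (smallest adjusted p = 0.819, for Glyma.12G084600, log2 fold change 0.66, SE 0.37).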

How the data were processed

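The authors deposited raw counts, whole numbers of reads per gene, for 10 pod libraries (TruSeq RNA, per the labels' protocols). Tools named in the submitters' processing notes, with no roles or settings, are edgeR, featureCounts, TopHat2, Subread 1.6.2 and Trim Galore 0.4.4. The IDs end in Wm82.a2.v1, but the build, strand handling and treatment of multi-mapping reads are not given in the sources used.

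Genes were filtered with filterByExpr, scaled by TMM and tested over all 30226 genes with the quasi-likelihood test of edgeR 4.0.16 (R 4.3.3), Benjamini-Hochberg threshold 0.05, two-sided. The SE is the log2 fold change over the square root of F. Log2 CPM used a prior count of 2. The code was tested on simulated counts with known changes. Permutation p-values of correlations used 100000 resamples.

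Other settings were DESeq2 1.42.0, limma-voom (limma 3.58.1), the edgeR exact test, other scalings and filters, and leaving out each soybean. The 2 genes, the other named genes and the settings were chosen with earlier results of these data known. Leaving out low_force 092 in the co-variation lists, leaving out the 3 libraries with high LHY1a, leaving out low_force 055 in the spread of the ratio, and the median absolute r were added after values had been seen. The rule for genes named by ID took the 2 highest and 2 lowest r for each copy.

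RefSeq's gene table (59048 genes) matched 0 IDs of the files, so the planned lists of cellulose, xylan, lignin and other wall genes were not run and no sequence is shown. The names of SHAT1-5, NST1A and the other genes were paired with IDs from published work, not from the files.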

Additional observations from a re-analysis of the deposited data

How the results depend on the processing

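No paired analysis was possible because the groups share no soybean number. NST1A kept its direction and its side of the threshold under all alternatives run, between 0.16 (without low_force 038) and 0.78 (library size only), as did the ratio of the copies on the log2 scale (-0.35 to -0.07 with 1 soybean left out). SHAT1-5, whose log2 fold change is near 0, changed sign with library size only (0.49) and with no low-count filter (0.0083), and leaving out 1 soybean gave -0.0955 to 0.117 (0.0060 without high_force 015, 0.063 without 071, 0.0032 without low_force 072, 0.117 without 092 and 0.010 without 109). The number of genes called was 62 with library size only, 3 in the edgeR exact test, 25 in DESeq2, 2 without high_force 015 and low_force 055 and 072, and 0 to 1 with 1 soybean left out. With library size only, r between the copies was 0.96 (permutation p = 0.0057) and the CV 40.3% for SHAT1-5 and 42.2% for NST1A. That setting leaves out the TMM scaling factors, which were 0.141 for low_force 055 and 0.874 to 1.525 for the other libraries. The cause was not tested. Leaving out 1 soybean gave r of 0.060 to 0.67 and CVs of 16.5% to 20.55% and 16.9% to 21.1%.

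By Spearman's rho, 46 genes reached 0.9 and 99 reached -0.9 with SHAT1-5, and 7 and 2 with NST1A. Without low_force 055 these numbers were 7 and 6 for NST1A by Pearson's r, and without low_force 092 6 genes reached 0.9 with it. Of the 16 genes close to SHAT1-5, 7 were still there without low_force 055 and 8 without 092, so membership of these lists depends on single libraries. Effective depth after scaling limits low_force 055 most, with 16 and 29 counts of the copies.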
